A study of Homo sapiens with 6 samples.

Results

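The genes described here are 46 genes of mitosis and its spindle checkpoint, listed by name for what their proteins do: cyclins and kinases that start mitosis, checkpoint and kinetochore proteins, spindle motors, cytokinesis proteins, targets of the anaphase promoting complex and the transcription factors that drive them. All 46 were found among the 62252 genes to which transcripts could be summed, and all 46 were among the 17095 genes that received an adjusted p. The rule itself uses no measured value. Poly-A RNA was sequenced from K562, a human leukemia line with erythroid features, after lentiviral delivery of a hairpin RNA to silence PCBP1 (the shPCBP1 group) or of one against luciferase (the shCtrl group), with puromycin selection in both. PCBP1 binds stretches of C in RNA and also delivers iron to other proteins, and the comparison asked what its loss did to the transcriptome. There were 3 libraries in each group. A single hairpin targeted PCBP1, and no label says whether the 3 libraries of a group came from separate transductions, so the p-values measure the spread between these libraries, which may be technical.

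Cells enter mitosis when cyclin B and CDK1 become active, a step held back by the kinases WEE1 and PKMYT1 and released by the CDC25 phosphatases. Kinetochores then attach chromosomes to the spindle, the checkpoint delays anaphase until attachment is complete, and the anaphase promoting complex (APC/C) with CDC20 ends the delay by marking securin and cyclin B for destruction. Most of these genes are transcribed in G2 and mitosis under MYBL2, FOXM1 and the DREAM and MuvB complexes, so that in a bulk culture a lower share of cells in G2 and mitosis and less RNA per mitotic cell cannot be told apart.

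The 6 libraries held between 67066747 and 140522444 estimated counts. Within a group, pairs of libraries differed beyond counting noise, with a chi-square of 6.48 to 16.4 for each degree of freedom. After division by size factors (normalized counts), PCBP1 itself stood at 18.1% of its shCtrl level in shPCBP1. All 10 erythroid markers checked for K562, globins and GATA1 among them, were present in every library at 36.6 TPM or more, TPM being a level scaled to the same total in each library and corrected for transcript length. Of these, HBG1 (0.16), TAL1 (0.19) and TFRC (0.35) were higher in shPCBP1 on the log2 scale by the DESeq2 test described next (adjusted p 0.00356, 2.00e-05 and 8.01e-13), TFRC by more than any mitosis gene. Of 8 markers of other cell types, 5 stayed under 1 TPM in every library, while EPCAM and COL1A1 were present and had lower counts in shPCBP1. The summed TPM of those 8 markers was between 46.4 and 46.6 in shCtrl and between 33.6 and 41.6 in shPCBP1. Their part in the results was not tested.

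Mitosis genes moved in both directions after PCBP1 knockdown, and by little. Of the 46 genes, 16 were higher and 8 lower in shPCBP1 at a Benjamini-Hochberg adjusted p under 0.05 in the DESeq2 Wald test, and 22 did not pass. That is 34.8% higher and 17.4% lower, where 17.7% of all genes tested were called higher and 13.5% lower. Abundant genes are called more often, and among the 9369 genes tested whose normalized counts averaged 1000 or more, which include 45 of the mitosis genes, 28.7% were higher and 16.2% lower, against 35.6% and 17.8% of those 45. Counts by role below cover 3 to 8 genes each and are to be read against these shares of the abundant genes. The median log2 fold change (shPCBP1 over shCtrl) of the 46 genes was 0.03, beside 0.0019 over all genes tested and 0.04 over the abundant ones. Their median absolute log2 fold change of 0.11 lay below the 0.16 of all genes tested and the 0.12 of the abundant genes. Under the study's own call, which also asks for an absolute log2 fold change over 1, 0 of the 46 genes passed with DESeq2 or edgeR, where 1.37% of all genes tested did with DESeq2. With TMM factors in place of the median of ratios the split became 12 higher and 10 lower. Offsets for the average transcript length gave 11 higher and 4 lower with a median of 0.073, and coding transcripts alone gave 10 higher and 9 lower with a median of -0.0012.

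The largest rise was 0.34 on the log2 scale (INCENP, 1.27-fold) and the largest fall took CDC25C to 83.2% of the shCtrl level. Groups of 3 libraries did not overlap for 27 of the 46 genes (58.7%), beside 44.2% of all genes tested and 56.1% of the abundant genes. These 27 were the 24 called genes and BUB1B, MAD2L1 and TTK. For the 21 uncalled genes other than UBE2C, the 95% intervals of the log2 fold change reached from -0.19 (BUB1B) to 0.20 (CDC25B). Changes to below 87.6% or above 115% of the shCtrl level lay outside all of them in the main DESeq2 fit. Intervals of BUB1B (-0.19 to -0.010) and MAD2L1 (-0.15 to -0.0044) lay wholly on the negative side. Other settings can give other bounds, as with BUB3 at 0.14 (SE 0.0552) under transcript length offsets.

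**Figure D1:**
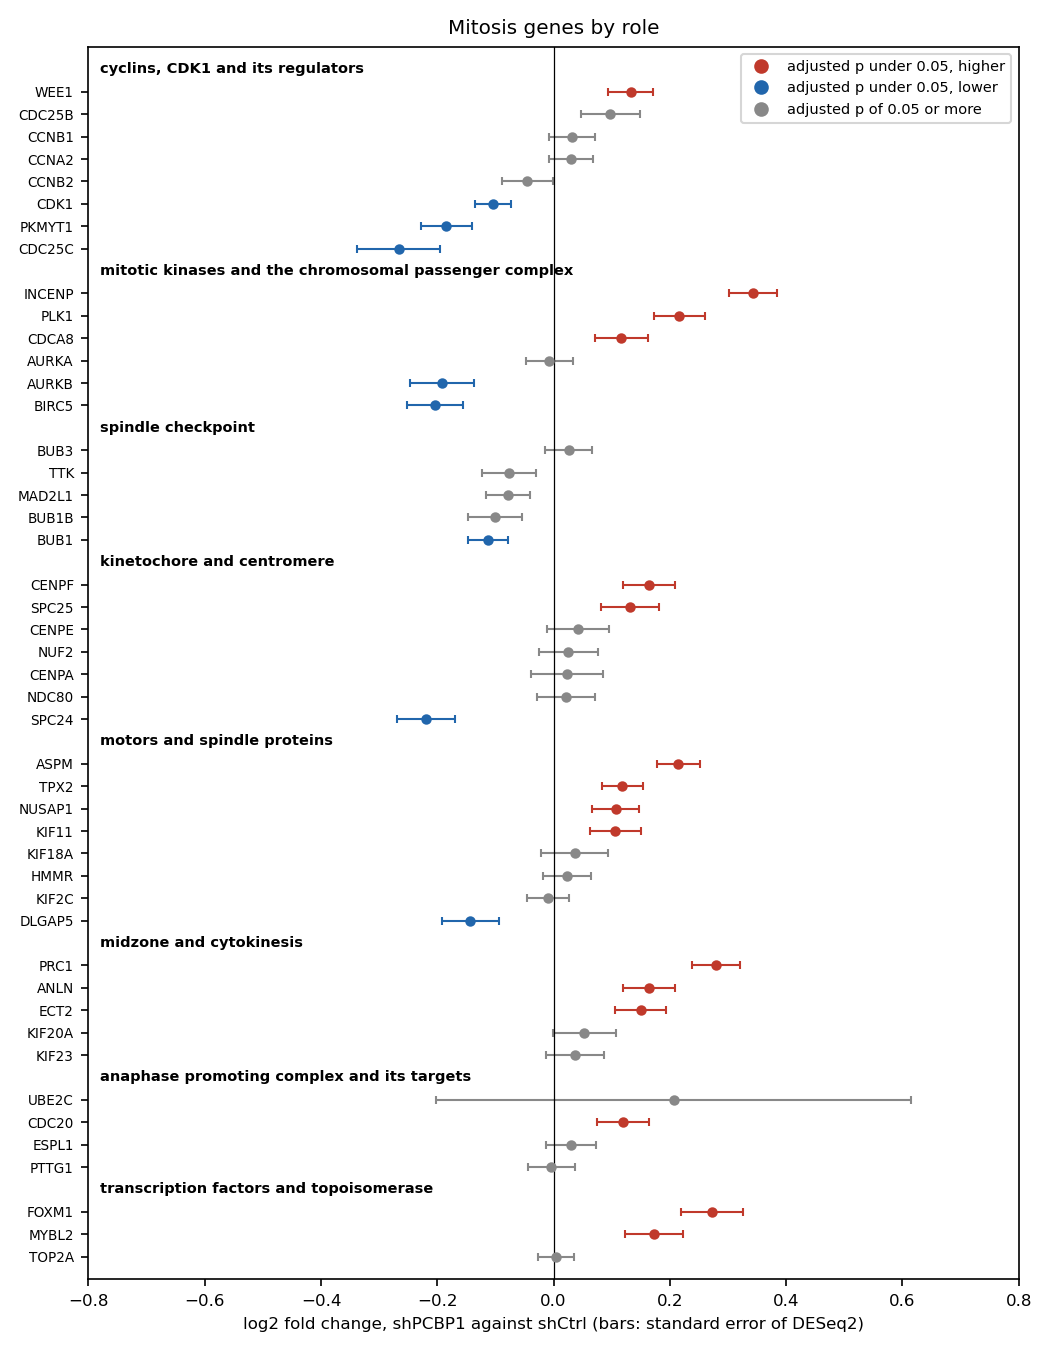
Log2 fold change of each of the 46 mitosis genes in shPCBP1 against shCtrl, grouped by role, with the standard error of DESeq2 as bars and the call as colour. Rises reach 0.34 (INCENP), falls reach -0.27 (CDC25C), roles such as the passenger complex hold genes of both directions, and the wide bar belongs to UBE2C.

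Levels of the genes themselves spanned a wide range. On the TPM scale, averaged over the 6 libraries, CDK1 (245), PTTG1 (237) and CCNB1 (220.2) were the highest, and 11 of the 46 genes exceeded 100 TPM. Over the libraries CDK1 ranged from 237 to 257 TPM, PTTG1 from 231 to 242 TPM and CCNB1 from 211 to 229 TPM, so that CDK1 and PTTG1 overlapped and CCNB1 lay below both. CENPE (14.6), CDC25C (15.7) and KIF18A (15.8) were low, and UBE2C, the ubiquitin conjugating enzyme that starts chains on APC/C substrates, was lowest at 1.33 TPM. Together the 46 genes took 3243, 3344 and 3273 TPM in shCtrl and 3354, 3337 and 3309 TPM in shPCBP1, or 0.329% and 0.334% of all TPM on average. The groups of summed TPM overlapped.

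Genes that set the activity of CDK1 moved apart. CDK1, the kinase that drives entry into mitosis, had 27782, 28020 and 28092 normalized counts in shCtrl and 26276, 25681 and 26068 in shPCBP1. Every shPCBP1 library lay below every shCtrl library, and the fall was small (log2 fold change -0.10, SE 0.0313, DESeq2 adjusted p 0.00432). Its partner cyclin B1, CCNB1, had 22123, 22083 and 23099 normalized counts in shCtrl and 23985, 22688 and 22121 in shPCBP1, and the groups overlapped (log2 fold change 0.03, SE 0.0396, DESeq2 adjusted p 0.606). The cyclin genes CCNA2 (0.03) and CCNB2 (-0.05) did not pass either.

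CDC25C and PKMYT1, which act on CDK1 in opposite ways, both fell. CDC25C, the phosphatase that removes inhibitory phosphates from CDK1 (chr5:138285269-138338355, minus strand, GRCh38), had 2131, 2248 and 2117 normalized counts in shCtrl and 1829, 1708 and 1863 in shPCBP1. The lowest shCtrl library exceeded the highest shPCBP1 library (log2 fold change -0.27, SE 0.0715, DESeq2 adjusted p 0.00126). PKMYT1, the membrane-bound kinase that adds such phosphates, had 11017, 10508 and 10977 normalized counts in shCtrl and 9904, 9158 and 9534 in shPCBP1, again without overlap (log2 fold change -0.18, SE 0.0439, DESeq2 adjusted p 0.000197). WEE1, the nuclear kinase with the same substrate, rose (log2 fold change 0.13, SE 0.0386, DESeq2 adjusted p 0.00313), while CDC25B, the phosphatase that acts early at the centrosome, did not pass (0.10, SE 0.0510). CDC25B passed as higher in 2 of 16 alternative analyses, with GC content and length trends removed (0.13, DESeq2 adjusted p 0.0485) and without shPCBP1 replicate 3 (0.14, 0.0231). Over the 16 its log2 fold change lay between 0.0086 and 0.14. Its mean TPM was 26.3 in shCtrl and 26.1 in shPCBP1. When trends with GC content and length were removed, PKMYT1 was at -0.02 (DESeq2 adjusted p 0.765) and CDK1 at -0.05 (0.270), and both also missed the threshold with offsets for the average transcript length (-0.11 and -0.03, adjusted p 0.112 and 0.705). WEE1 missed it with those offsets (0.11, 0.225) and with coding transcripts only (0.09, 0.0575).

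Subunits of the chromosomal passenger complex split. This complex places the kinase Aurora B at centromeres through INCENP, its scaffold, together with survivin (BIRC5) and borealin (CDCA8). INCENP (chr11:62123998-62153169, plus strand) had 9378, 9457 and 9036 normalized counts in shCtrl and 12123, 11461 and 11758 in shPCBP1 and rose most of all 46 genes (log2 fold change 0.34, SE 0.0414, DESeq2 adjusted p 6.36e-15). AURKB, which encodes Aurora B, had 4694, 4940 and 4602 normalized counts in shCtrl and 4348, 3993 and 4116 in shPCBP1. It fell (log2 fold change -0.19, SE 0.0554, DESeq2 adjusted p 0.00298), and its highest shPCBP1 library stayed below its lowest shCtrl library. BIRC5 had 17130, 15656 and 17591 normalized counts in shCtrl and 15275, 14292 and 14186 in shPCBP1 and also fell without overlap (log2 fold change -0.20, SE 0.0481, DESeq2 adjusted p 0.000183). CDCA8 rose (log2 fold change 0.12, SE 0.0449, DESeq2 adjusted p 0.0325), but this call held in only 5 of 16 alternative analyses, with log2 fold changes between 0.09 and 0.14.

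PLK1, the polo kinase that matures centrosomes and kinetochores, had 19061, 18365 and 20402 normalized counts in shCtrl and 22984, 22600 and 21605 in shPCBP1. All 3 shPCBP1 libraries lay above the shCtrl range (log2 fold change 0.22, SE 0.0437, DESeq2 adjusted p 8.61e-06). AURKA, the kinase of spindle poles, had 12018, 11938 and 12312 normalized counts in shCtrl and 12397, 12092 and 11602 in shPCBP1, with overlapping groups (log2 fold change -0.007, SE 0.0402, DESeq2 adjusted p 0.925).

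Of the 5 spindle checkpoint genes, BUB1 fell and the others did not pass. BUB1, a kinetochore kinase that recruits the checkpoint proteins, had 16766, 17000 and 16879 normalized counts in shCtrl and 15407, 15508 and 15920 in shPCBP1, with shPCBP1 below shCtrl throughout (log2 fold change -0.11, SE 0.0348, DESeq2 adjusted p 0.00571). BUB1B, the gene of BUBR1, had 8349, 7970 and 8583 normalized counts in shCtrl and 7850, 7902 and 7475 in shPCBP1. MAD2L1, whose protein binds and restrains CDC20, had 11801, 12142 and 12081 normalized counts in shCtrl and 11581, 11219 and 11311 in shPCBP1. For both, each shPCBP1 library lay below each shCtrl library, yet neither passed (BUB1B -0.10, SE 0.0462, DESeq2 adjusted p 0.0833, and MAD2L1 -0.08, SE 0.0378, adjusted p 0.102). TTK, the kinase at the top of the checkpoint, had 5615, 5764 and 5541 normalized counts in shCtrl and 5444, 5285 and 5306 in shPCBP1 and did not pass either (log2 fold change -0.08, SE 0.0467, DESeq2 adjusted p 0.218). BUB3, the adaptor of BUB1 and BUBR1, was at 0.03 with overlapping normalized counts, while its TPM lay between 138 and 149 in shCtrl and between 151 and 157 in shPCBP1. BUB1 missed the threshold with transcript length offsets (-0.07, adjusted p 0.341), where MAD2L1 was at 0.06 (0.478) and BUB3 passed as higher (0.14, 0.0490). BUB1B passed as lower in 6 of the 16 alternatives and MAD2L1 in 3.

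The 4 genes of the NDC80 complex, the part of the kinetochore that grips microtubules, did not move together. SPC24 had 5309, 5232 and 5094 normalized counts in shCtrl and 4360, 4434 and 4636 in shPCBP1 and fell without overlap (log2 fold change -0.22, SE 0.0504, DESeq2 adjusted p 0.000115). SPC25, whose protein pairs with that of SPC24, rose (log2 fold change 0.13, SE 0.0498, DESeq2 adjusted p 0.0301), a call that 9 of the 16 alternatives lost. NDC80 (0.02) and NUF2 (0.03) did not pass. CENPF, a large outer kinetochore protein, rose in counts (log2 fold change 0.16, SE 0.0447, DESeq2 adjusted p 0.00146). On the TPM scale it was 47.9 ± 5.42 TPM in shCtrl and 45.6 ± 4.19 TPM in shPCBP1 (SD, n = 3), and with transcript length offsets its log2 fold change was -0.05 (DESeq2 adjusted p 0.764). CENPA, the histone variant of centromeres, was at 0.02 and CENPE, a plus-end-directed motor, at 0.04, and neither passed.

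Among spindle genes 4 of 8 rose and DLGAP5 fell, to be read against 28.7% higher and 16.2% lower among the abundant genes. ASPM, which focuses microtubules at spindle poles, had 14993, 15537 and 15410 normalized counts in shCtrl and 17965, 17342 and 18008 in shPCBP1, and its groups were far apart (log2 fold change 0.21, SE 0.0363, DESeq2 adjusted p 6.27e-08). TPX2, which activates Aurora A and nucleates microtubules, rose by less (log2 fold change 0.12, SE 0.0352, DESeq2 adjusted p 0.00404). Its call was lost with GC content and length trends removed (0.08, DESeq2 adjusted p 0.0936). NUSAP1 (0.11, adjusted p 0.0302), a microtubule bundling protein, and KIF11 (0.11, adjusted p 0.0455), the motor that pushes spindle poles apart, passed narrowly, and their calls were lost in 10 and 12 of the 16 alternatives. DLGAP5, a spindle assembly factor also called HURP, fell (log2 fold change -0.14, SE 0.0485, DESeq2 adjusted p 0.0134), a call lost with transcript length offsets (-0.11, adjusted p 0.168) and without shCtrl replicate 2 (-0.10, adjusted p 0.0754), shPCBP1 replicate 1 (-0.13, 0.0650) or shPCBP1 replicate 2 (-0.14, 0.0644). The motor genes KIF18A (0.04) and KIF2C (-0.01) and the hyaluronan receptor gene HMMR (0.02), whose protein also sits at spindle poles, did not pass.

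Of the 5 midzone and cytokinesis genes, 3 rose and 0 fell, beside 28.7% higher and 16.2% lower among the abundant genes. PRC1, which bundles microtubules of the central spindle (chr15:90966040-90995629, minus strand), had 10038, 10007 and 10646 normalized counts in shCtrl and 12754, 12332 and 12168 in shPCBP1, with a wide gap between the groups in these counts (log2 fold change 0.28, SE 0.0421, DESeq2 adjusted p 8.50e-10). Its TPM were closer, 70.6 ± 3.00 in shCtrl and 79.0 ± 3.43 in shPCBP1 (SD, n = 3). With transcript length offsets its log2 fold change was 0.18 (DESeq2 adjusted p 0.0148). Summed with a gene that overlaps it on the same strand, its log2 ratio of means was 0.15. ECT2, the exchange factor that switches on RhoA at the cell equator, rose (log2 fold change 0.15, SE 0.0432, DESeq2 adjusted p 0.00296). Its call was lost with transcript length offsets (0.13, DESeq2 adjusted p 0.307). ANLN, a scaffold of the contractile ring, rose as well (log2 fold change 0.16, SE 0.0446, DESeq2 adjusted p 0.00145). The kinesin genes KIF23 (0.04) and KIF20A (0.05) did not pass.

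Of the APC/C genes on the list, only CDC20 passed. CDC20, the activator that the checkpoint holds in check, had 12841, 11934 and 12682 normalized counts in shCtrl and 14164, 13464 and 13072 in shPCBP1, with every shPCBP1 library above every shCtrl library (log2 fold change 0.12, SE 0.0444, DESeq2 adjusted p 0.0259). The rise lost its call in 7 of the 16 alternatives, among them edgeR (0.11, adjusted p 0.102). Securin, PTTG1 (-0.0037), and separase, ESPL1 (0.03), which cuts cohesin once securin is gone, did not pass. UBE2C had only 42.5, 35.9 and 69.6 normalized counts in shCtrl and 60.7, 55.8 and 55.4 in shPCBP1, and the groups overlapped. Its log2 fold change of 0.21 came with an SE of 0.408, so that no change was detectable with so few counts.

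Both transcription factor genes rose, and the gene of the most abundant counts did not pass. FOXM1, which activates genes of G2 and mitosis, had 5566, 5085 and 5574 normalized counts in shCtrl and 6726, 6595 and 6287 in shPCBP1, with each shPCBP1 library above each shCtrl library (log2 fold change 0.27, SE 0.0528, DESeq2 adjusted p 3.14e-06). MYBL2, the B-MYB partner of MuvB, had 18674, 17782 and 19338 normalized counts in shCtrl and 22543, 20770 and 19598 in shPCBP1, where the lowest shPCBP1 library lay just above the highest shCtrl library (log2 fold change 0.17, SE 0.0494, DESeq2 adjusted p 0.00258). TOP2A, which untangles sister chromatids, had 59801, 61988 and 61527 normalized counts in shCtrl and 62381, 60688 and 60807 in shPCBP1, with overlapping groups (log2 fold change 0.0045, SE 0.0308, DESeq2 adjusted p 0.939).

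**Figure D2:**
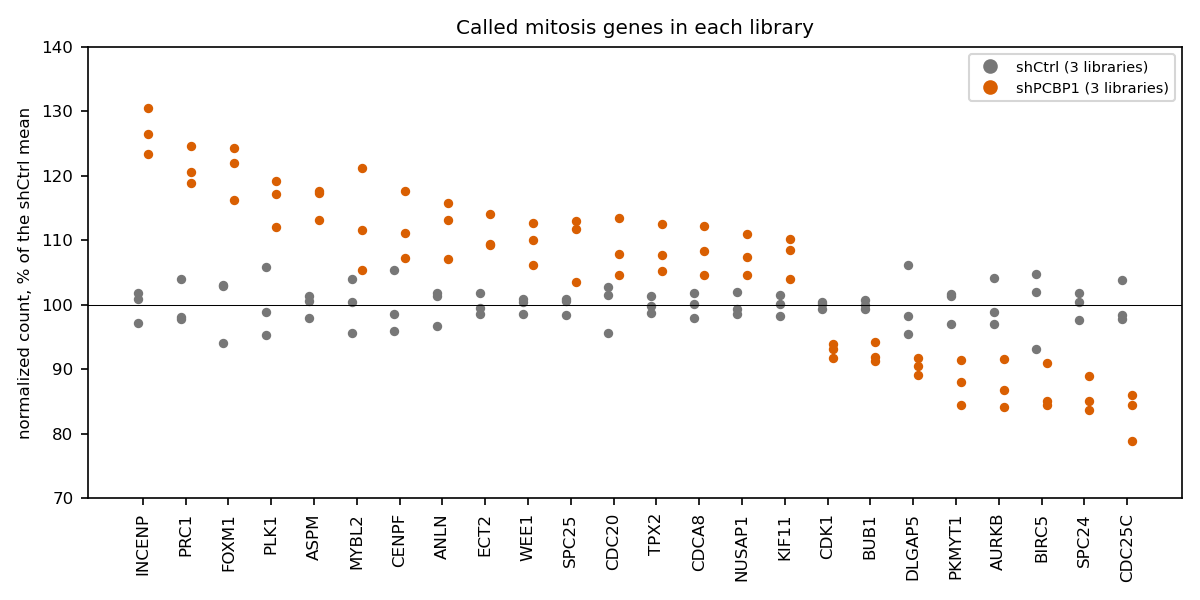
Normalized counts of the 24 called mitosis genes in each of the 6 libraries, as percent of the gene's shCtrl mean on an axis that runs from 70 to 140%, ordered by log2 fold change. Points of the 3 shPCBP1 libraries lie above those of the 3 shCtrl libraries for the 16 genes on the left and below them for the 8 genes on the right.

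Of the 24 calls, 11 held in all 16 alternative analyses run: INCENP, PRC1, FOXM1, PLK1, ASPM, MYBL2 and ANLN as higher, and CDC25C, SPC24, BIRC5 and AURKB as lower. The remaining 13 lost the threshold in 1 to 12 of them. Leaving out shPCBP1 replicate 1 or replicate 2 each lost the calls of CDC20, CDCA8, SPC25, NUSAP1, KIF11 and DLGAP5. Also lost were CDC20, CDCA8, NUSAP1 and DLGAP5 without shCtrl replicate 2, SPC25, NUSAP1 and KIF11 without shCtrl replicate 1, and CDCA8 and KIF11 without shCtrl replicate 3. DESeq2 adjusted p in these fits lay between 0.0612 and 0.159. CENPF was the one called gene whose sign changed, with transcript length offsets.

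Ratios of 2 genes within a library do not depend on how libraries are scaled, though they do depend on trends with GC content or length, and they were computed for 8 pairs of genes with related roles. The pairs were chosen after the values above were seen, so the ratios are given without a test. INCENP to AURKB went from 1.96 ± 0.0421 to 2.84 ± 0.0439 (SD, n = 3). INCENP to BIRC5 was 0.547, 0.604 and 0.514 in shCtrl and 0.794, 0.802 and 0.829 in shPCBP1. For both, the groups lay well apart, which had to follow as INCENP rose and AURKB and BIRC5 fell, each without overlap. CDCA8, another partner gene, rose as well (0.12). CDCA8 to BIRC5 went from 0.438 ± 0.0205 to 0.546 ± 0.00914 (SD, n = 3), also without overlap.

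SPC25 to SPC24, whose proteins form a dimer, was 1.03, 1.07 and 1.11 in shCtrl and 1.45, 1.41 and 1.25 in shPCBP1. The ratio of WEE1 to PKMYT1, the kinase genes that act on CDK1, went from 1.14 ± 0.0411 to 1.42 ± 0.0969 (SD, n = 3), and that of FOXM1 to CDC25C from 2.50 ± 0.208 to 3.64 ± 0.245 (SD, n = 3). CCNB1 to CDK1 went from 0.802 ± 0.0178 to 0.882 ± 0.0322 (SD, n = 3). The falls of PKMYT1 and CDK1 in these ratios were not called with GC and length trends removed (log2 fold changes -0.02 and -0.05). The groups of these ratios did not overlap. Except for CCNB1 to CDK1 this had to follow, as the first gene of the pair rose and the second fell, each without overlap. NUF2 to NDC80, a pair of uncalled genes, was 0.714, 0.674 and 0.660 in shCtrl and 0.689, 0.665 and 0.699 in shPCBP1, and its groups overlapped.

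**Figure D3:**
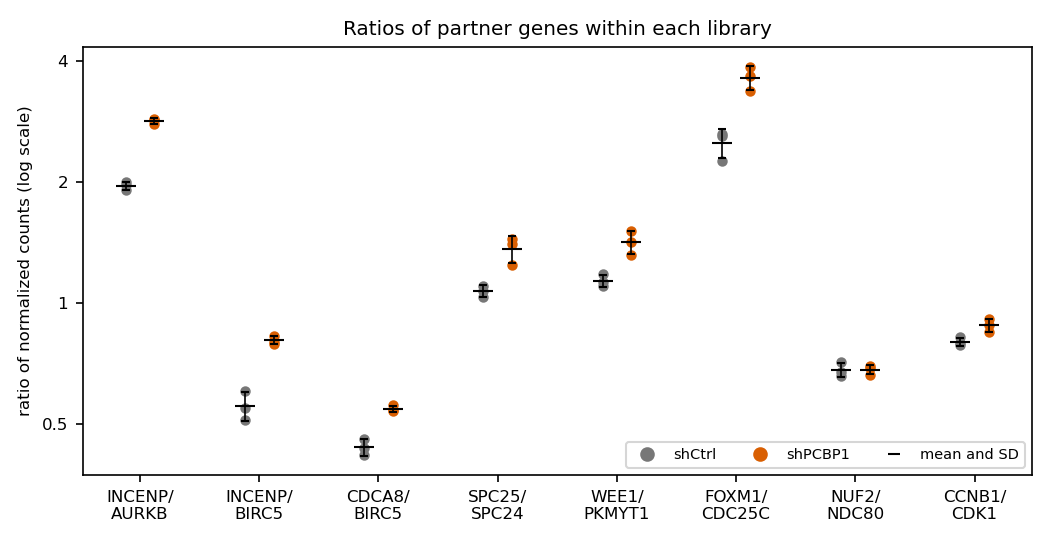
Ratios of normalized counts for 8 pairs of mitosis genes in each library, on a log2-spaced axis, with the mean and SD of the 3 libraries of each group in black. INCENP to AURKB moves from 1.96 to 2.84, while NUF2 to NDC80 stays at 0.682 and 0.684.

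For 13 of the 46 genes another expressed gene overlaps on the genome, and whether the libraries kept strand is not given in the sources used here, so that reads in the overlap may be split. PRC1 overlaps on the same strand a protein-coding gene listed as ENSG00000284946, which fell (log2 fold change -0.41, DESeq2 adjusted p 2.47e-05). Summed with it, PRC1 had 12894, 13546 and 13376 normalized counts in shCtrl and 15121, 14570 and 14425 in shPCBP1, without overlap of the groups. SPC25 overlaps NOSTRIN (-0.29) on the opposite strand. CDC25C lies opposite FAM53C (0.19), PKMYT1 opposite KREMEN2 (-0.83) and PAQR4 (-0.19), and FOXM1 opposite ITFG2 (-0.07) and RHNO1 (-0.06). CENPA shares its strand with SLC35F6 (0.18) and NUSAP1 with OIP5-AS1 (-0.10). The part of these neighbours in the counts was not tested.

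Transcript use was examined as the share of a gene's TPM that each transcript held, tested with limma on the log2 ratio of the transcript to the gene's other transcripts. Of 387 annotated transcripts of the mitosis genes, 129 from 41 genes could be tested. On simulated data this test missed most of the changes put in, so a transcript that did not pass may still have changed. CDCA8-201 and CDCA8-202 were called, at a Benjamini-Hochberg adjusted p under 0.05 and a change over 5 percentage points, beside 0.693% of all 38661 transcripts tested. They are the only transcripts of CDCA8 with a share, so the 2 calls are 1 measurement. CDCA8-202 held 81.5%, 81.0% and 81.3% in shCtrl and 95.4%, 93.6% and 91.9% in shPCBP1. The share in shPCBP1 exceeded shCtrl in every library, and its mean went from 81.3% ± 0.234 to 93.6% ± 1.72 (SD, n = 3, limma adjusted p 0.0354). In TPM, CDCA8-201 was 7.72, 7.84 and 7.66 in shCtrl and 2.05, 2.81 and 3.46 in shPCBP1, while CDCA8-202 was 34.0, 33.5 and 33.2 in shCtrl and 42.4, 41.1 and 39.5 in shPCBP1. The call was lost with a replicate block (adjusted p 0.169), with no minimum share (0.120) and without any 1 library other than shPCBP1 replicate 3 (0.0632 to 0.124), although the difference stayed between 11.5 and 13.2 points when a library was left out.

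CDCA8 lies on the plus strand of chromosome 1. Its transcripts share their coding sequence of 840 bases and differ in the 5′ UTR, where CDCA8-201 splices out an intron of 97 bases, chr1:37692579-37692675 on GRCh38, that CDCA8-202 keeps. The first bases of the transcripts differ as well, 37692481 for CDCA8-201 and 37692516 for CDCA8-202. C makes up 46.4% of the intron, and G and C together 68.0%. No other intron was compared, and whether PCBP1 binds here was not tested. Its first and last 30 bases are shown because the transcripts differ by this intron, with the splice site dinucleotides in capitals, and the last 30 bases hold 18 C.
Start of the intron, chr1:37692579-37692608: GTacgtgcctggcgacttcttcgggtggtc
End of the intron, chr1:37692646-37692675: tccctgccccatctccgccgctccccgcAG

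Next in order of p came 3 retained-intron transcripts, none of which passed. PKMYT1-215 held 4.25%, 6.51% and 3.66% in shCtrl and 12.2%, 12.1% and 10.4% in shPCBP1 of PKMYT1 (limma adjusted p 0.0717), with the groups apart. CENPF-208 held 18.1%, 16.6% and 20.9% in shCtrl and 12.1%, 11.4% and 9.24% in shPCBP1 of CENPF (adjusted p 0.117), and lower in shPCBP1. CDK1-205 held 5.78%, 5.71% and 5.58% in shCtrl and 6.94%, 7.27% and 6.87% in shPCBP1 of CDK1 (adjusted p 0.128). Of the 23 retained-intron transcripts tested, 3 had a higher share and 4 a lower share at an unadjusted p under 0.05. The same count over the retained-intron transcripts of all genes was not made, so these numbers have no background of their own. Of all 129 transcripts, 23 had an unadjusted p under 0.05, or 17.8%, beside 13.7% of all transcripts tested.

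**Figure D4:**
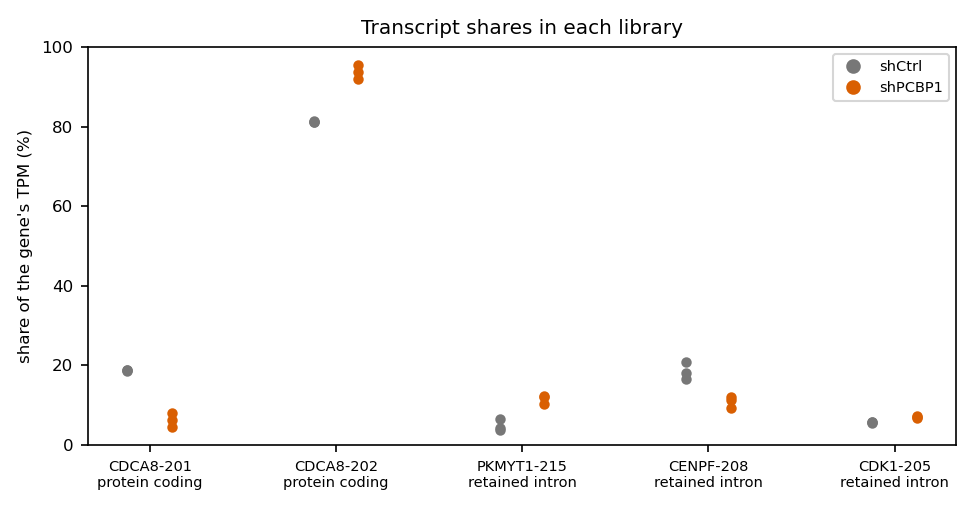
Share of a gene's TPM held by the 5 transcripts of mitosis genes with the lowest p, in each of the 6 libraries. CDCA8-202 rises from near 81% to above 91%, CDCA8-201 is its complement, and the 3 retained-intron transcripts did not pass the test.

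The share of a gene's TPM in protein-coding transcripts, which leaves out retained-intron, nonsense-mediated decay and other non-coding forms, could be tested for 41 of the 46 genes with the same kind of model, so that the same limit may apply. With limma 0 of the 41 were called, beside 0.0529% of all 9453 genes tested. An unadjusted limma p under 0.05 was found for 5 of the 41 (ASPM, ANLN, CENPF, TOP2A and CDK1), beside 1246 of the 9453. CENPF had the largest difference of these 5, from 51.8% in shCtrl to 63.6% in shPCBP1 (limma adjusted p 0.273). The lowest adjusted p was that of ASPM, 0.260. The median coding share of the 41 genes was 91.1% in shCtrl and 89.4% in shPCBP1.

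Many promoters of G2 and mitosis genes hold a CHR element (cell cycle genes homology region), the letters that the MuvB core binds. The promoter sequences of RefSeq (GRCh38.p14, from 250 bases before to 50 after the start site) were searched for TTTGAA and TTCGAA on both strands, where TTCGAA reads the same on either strand. Promoters of 37 of the 46 genes were in the table, and 28 of them held the letters (75.7%), beside 5336 of 27305 genes (19.5%). The table had no entry for WEE1, PKMYT1, AURKA, BIRC5, BUB3, TTK, TPX2, UBE2C and FOXM1. By call, 12 of 13 higher genes, 4 of 6 lower genes and 12 of 18 uncalled genes held the letters, so genes that rose and genes that fell both carry them. A match describes these letters only and is not a measured binding site.

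The 30 bases around the element are shown for 4 genes that rose and 4 that fell, read in the direction of transcription, with the element in capitals. Where the promoters of a gene held several matches (4 in CDK1, 3 in DLGAP5 and 2 each in CDC25C and CDC20), the one nearest a start site is shown.
INCENP, chr11:62123989-62124018, plus strand: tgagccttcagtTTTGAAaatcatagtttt
PRC1, chr15:90994538-90994567, minus strand: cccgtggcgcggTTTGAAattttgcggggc
PLK1, chr16:23678848-23678877, plus strand: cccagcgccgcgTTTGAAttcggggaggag
CDC20, chr1:43358904-43358933, plus strand: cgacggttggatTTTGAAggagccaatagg
CDK1, chr10:60778453-60778482, plus strand: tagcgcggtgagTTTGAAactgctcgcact
CDC25C, chr5:138331817-138331846, minus strand: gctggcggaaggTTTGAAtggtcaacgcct
BUB1, chr2:110678045-110678074, minus strand: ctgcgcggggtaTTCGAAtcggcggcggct
DLGAP5, chr14:55191565-55191594, minus strand: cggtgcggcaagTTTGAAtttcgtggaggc
INCENP, PRC1, PLK1, CDC20, CDK1, CDC25C and DLGAP5 have TTTGAA, and BUB1 has TTCGAA. The first base of the element shown stood 10 bases before the start site of the matched RefSeq promoter in INCENP, 20 in PRC1, 29 in PLK1, 65 in CDC20, 13 in CDK1 and 30 in CDC25C, and within 3 bases after it in BUB1 and DLGAP5.

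Other genes of the cell cycle were counted in the same DESeq2 fit, 176 genes on 8 lists, of which 174 received an adjusted p. Of these 76 were higher (43.7%) and 16 lower (9.20%), to be read against 28.7% and 16.2% of the abundant genes, as 171 of the 176 averaged 1000 or more. The gene named for each list is the one with its lowest p and need not move as the rest of the list does. Of 22 cohesin and condensin genes, which hold and compact chromosomes, 16 were higher and 0 lower (72.7%, median log2 fold change 0.14). NCAPD2, a condensin subunit, rose by 0.25 (SE 0.0335, DESeq2 adjusted p 4.32e-12). Of 31 further kinetochore and checkpoint genes 13 were higher and 2 lower, with CENPO at 0.31. Of 19 further APC/C genes 6 were higher and 3 lower. UBE2S, the enzyme that extends the chains UBE2C starts, had 216 ± 5.21 TPM in shCtrl and 297 ± 8.47 TPM in shPCBP1 (SD, n = 3). Its log2 fold change of 0.33 (DESeq2 adjusted p 3.29e-16) is of summed counts, which unlike TPM are not corrected for transcript length.

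Of 30 further spindle and cytokinesis genes 9 were higher and 5 lower, with a median log2 fold change of 0.064. HAUS4, a subunit of the augmin complex that branches microtubules, had 3706, 3883 and 3867 normalized counts in shCtrl and 2014, 2187 and 2210 in shPCBP1 and fell (log2 fold change -0.84, SE 0.0626, DESeq2 adjusted p 2.43e-38), further than any of the 46 genes. Of the 11 DREAM and MuvB genes 5 were higher and 1 lower, with TFDP2 at 0.34. Of 8 Greatwall and PP2A-B55 genes 4 were higher and 1 lower, with ARPP19, an inhibitor of that phosphatase, at 0.21.

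Of 39 replication licensing and fork genes 16 were higher and 3 lower, with a median log2 fold change of 0.059. POLD1, the catalytic subunit of polymerase delta and the gene with the lowest p there, was at -0.66, against the direction of most called genes of its list. Of 14 tested genes of G1 cyclins, kinases and CDK inhibitors 7 were higher and 1 lower. CDKN1A, the inhibitor p21, had 2874, 2905 and 3070 normalized counts in shCtrl and 4947, 4837 and 5219 in shPCBP1 and rose by 0.76 (SE 0.0564, adjusted p 8.05e-39), again beyond the range of the 46 genes.

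**Figure D5:**
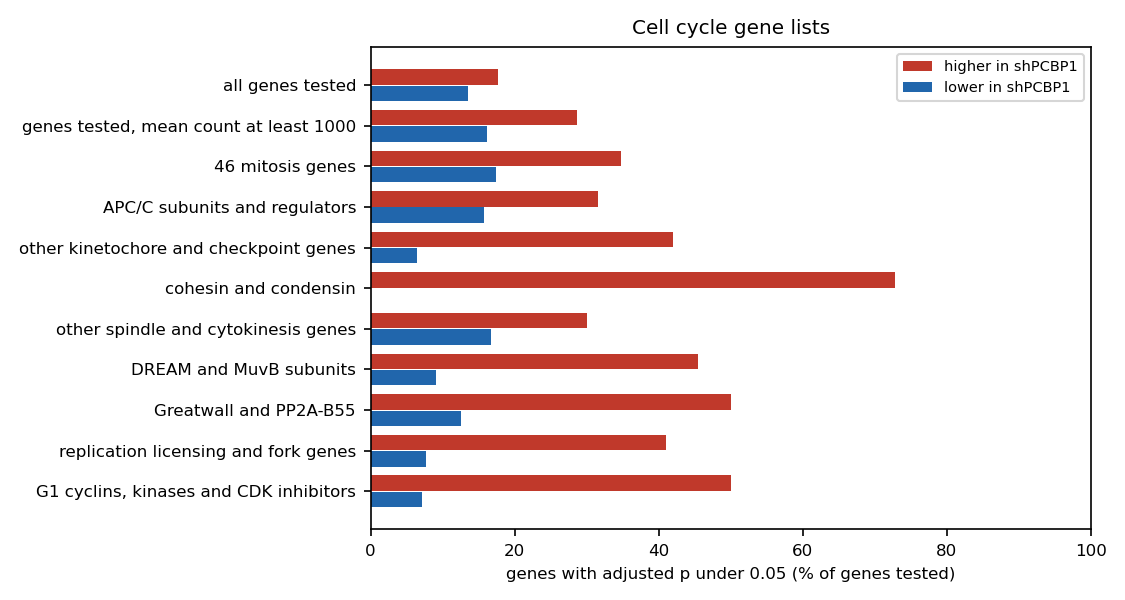
Percent of genes with a DESeq2 adjusted p under 0.05, higher and lower in shPCBP1, for all genes tested, the abundant genes tested, the 46 mitosis genes and 8 other cell cycle lists. The mitosis genes stand at 34.8% higher and 17.4% lower, and cohesin and condensin at 72.7% higher with no gene lower.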

How the data were processed

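The authors quantified paired-end reads of poly-A RNA with Salmon 1.10.2 (submitters' processing notes). The deposited estimated counts per transcript were not normalized, and the deposited TPM values were scaled on effective length. The annotation behind the index is not given in the sources used here. Of 252045 transcripts per file, 251612 matched GENCODE release 44 (GRCh38) by identifier without version, and unmatched transcripts held between 0.136% and 0.147% of counts. Gene sums of the estimated counts were rounded, and the 28848 genes whose total over all libraries reached 10 were fitted with DESeq2 1.42.0 (two-sided Wald test, group as the only term, Benjamini-Hochberg adjustment over all genes tested). Transcript shares used limma 3.58.1 with a pseudocount of 0.1 TPM, for genes of at least 1 TPM and mean shares between 5 and 95%. Both steps were tested on simulated data, where the transcript test missed most of the changes put in.

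The members and lists were chosen with earlier results of these data known. Values per library are given for core genes of each role (CCNB1, CDK1, CDC20, PLK1, AURKA, AURKB, BUB1B, MAD2L1, TTK, TOP2A, FOXM1, MYBL2), the 5 largest called rises and falls, and the lowest p in each role. Of each other cell cycle list the gene with the lowest p is named, HAUS4 and CDKN1A among them. Values per library of UBE2C, HAUS4 and CDKN1A were added beyond these rules after they were seen. The neighbouring genes, the abundance background and the gene pairs were likewise chosen after values were seen. Alternatives covered edgeR 4.0.16, TMM factors, transcript length offsets, count filters, coding genes or transcripts only, thinning to the lowest depth, GC content and length trends, a replicate block, other share settings and each library left out. Size factors assume that most genes do not change. One overlapping gene is not reported here. R 4.3.3 and Python 3.11.15 were used.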

Additional observations from a re-analysis of the deposited data

How the results depend on the processing

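Of the 46 genes, 18 to 25 passed when a library was left out, 11 to 17 of them higher and 7 to 8 lower. Without shPCBP1 replicate 1 or 2 the count of higher genes was 11, against 16 with all libraries. With transcript length offsets 15 passed, 4 of them lower, the median log2 fold change of the 46 was 0.073, and the other cell cycle lists gave 59 genes, 7 of them lower. With coding transcripts only 10 of the 46 were higher and their median was -0.0012. edgeR called 11 higher and 8 lower, and 50 genes of the other lists higher. TOP2A, uncalled throughout, was at -0.010 with edgeR, -0.010 with TMM factors, -0.0079 with a mean count of at least 50, -0.018 with coding genes only, -0.025 with coding transcripts only, -0.056 with GC and length trends removed and between -0.011 and 0.016 without a library. MAD2L1 was at 0.064 with length offsets, AURKA at 0.0043 with GC and length trends removed and between -0.029 and 0.018 without a library, and CCNB1 between -0.0020 and 0.056 without a library. Called transcripts of the 46 genes numbered 0 with a replicate block or no minimum share, and between 0 and 2 without a library, with 2 only without shPCBP1 replicate 3. The cause of these shifts was not tested.

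Libraries of the same number did not deviate together (correlations 0.039, 0.016 and -0.033 over 16153 genes), and 2 of 6 correlated best with their own number, so the numbers were not taken as pairs. A replicate block gave 12 higher and 8 lower of the 46 genes. UBE2C had too few counts to show a change, and with counts thinned to the lowest total KIF11 and SPC25 lost their calls (adjusted p 0.0632 and 0.0793), leaving 22 of 24.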

Other observations

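UBE2C had 0.990, 0.845, 1.89 TPM in the shCtrl libraries and 1.32, 1.25, 1.66 TPM in the shPCBP1 libraries, summed over its transcripts, while CDC20, which acts in the same step, averaged 113 TPM and UBE2S averaged 256 TPM in the same libraries. Whether the cells or the index used to quantify reads give this low level was not tested.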
